A study of Mus musculus with 7 samples.

Results

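The late gained regions are stretches of open chromatin that were listed as ATAC-seq peaks in mouse pancreatic epithelium at day 7 and at day 28 after caerulein, and in neither untreated epithelium nor epithelium at day 1. They were found by merging the overlapping peaks of 4 deposited peak lists on chromosomes 1 to 19 and X. Of 223972 merged regions, 2486 met this rule, which is 1.11% (exact 95% interval 1.07% to 1.15%, counting error only). The members were thus selected on measured peaks, and the fold enrichments that put them in the lists are given as a description.

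Epithelial cells were purified from the pancreas of C57BL/6J wild-type mice that were untreated or had received caerulein 1, 7 or 28 days earlier. ATAC-seq uses the transposase Tn5 to insert sequencing adapters into accessible DNA. Each of the 4 groups had 1 library, so no difference below has a replicate check. The sources used here do not give the animals' age or sex, or whether animals were pooled. A further 3 samples, of DCLK1-positive cells from Dclk1-DTR-ZsGreen mice, were not analysed here.

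Caerulein is an analogue of the hormone cholecystokinin that overstimulates acinar cells and causes a transient pancreatitis. Acinar cells, which make the digestive enzymes, lose part of their enzyme programme during the injury, take on duct-like features and then recover. Accessible regions away from gene starts are often enhancers, bound by transcription factors such as AP-1 (Fos and Jun proteins), GATA and nuclear receptor families. The series title refers to an epithelial memory of resolved inflammation, and regions first listed at day 7 and still listed at day 28 belong to the late side of that time course.

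Promoter peaks were set against marker genes to check the labelled cell type. Of 20 acinar enzyme genes with a promoter sequence, 16 carried a promoter peak before caerulein, 6 on day 1, 14 on day 7 and 16 on day 28. Of 10 leukocyte genes, 2, 2, 3 and 2 had one in the same order, and Ptprc, the pan-leukocyte antigen CD45, had none in any list. All 9 fibroblast and stellate genes with a promoter sequence had one in every list. Of 8 endothelial genes 7, 5, 7 and 6 had one, of 12 endocrine genes 7, 5, 8 and 9, and of 9 tuft cell genes 6, 5, 6 and 6. None of 5 erythroid genes had one in any list. Regions linked to the 16 fibroblast and stellate genes numbered 102, 278, 185 and 119 in the untreated, day 1, day 7 and day 28 lists. The even promoter count of these genes therefore does not show an even signal. In a mixed preparation, fewer cells of a type and less open chromatin per cell cannot be told apart, and the part that cell mixture plays in the results below was not tested.

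A promoter was taken as the 250 bases before and 50 bases after an annotated start. Promoters were overlapped by 51 members (2.05%), against 6.34% of all merged regions. Regions of all 4 lists made up 11768 of the 14210 merged regions that overlapped a promoter. Of regions of day 7 alone, 120 of 10048 overlapped one, and of day 28 alone 91 of 11252. Of regions of days 1, 7 and 28, 196 of 8586 did, so a low share was not particular to the members. The 3 highest-ranked of the 51 members lay at long non-coding RNA genes (Gm33122, 9530036M11Rik and Gm17029). The highest-ranked at protein-coding genes lay at Arhgap40, which encodes a GTPase-activating protein, and Aqp5, the water channel of secretory glands. The promoters of these 5 genes are printed as examples. Gm39322, equal in rank to Gm17029, and Rptoros, ranked above Aqp5, are not printed. Of the 10 highest-ranked promoters, those of Gm39322, 9430021M05Rik and Gm52042 held no motif match, so the printed ones do not represent all. The printed sequences are RefSeq sequences of GRCm38.p6, 5′ to 3′ on the gene's strand, with matches to the 16 motifs searched in capitals.
Gm33122, chr7:129651809-129652108, minus strand: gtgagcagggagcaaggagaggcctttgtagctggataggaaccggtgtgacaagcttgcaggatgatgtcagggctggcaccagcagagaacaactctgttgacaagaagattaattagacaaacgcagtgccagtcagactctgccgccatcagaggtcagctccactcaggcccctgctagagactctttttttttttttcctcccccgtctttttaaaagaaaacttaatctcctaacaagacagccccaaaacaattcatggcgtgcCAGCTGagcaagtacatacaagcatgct
9530036M11Rik, chr6:54150890-54151189, minus strand: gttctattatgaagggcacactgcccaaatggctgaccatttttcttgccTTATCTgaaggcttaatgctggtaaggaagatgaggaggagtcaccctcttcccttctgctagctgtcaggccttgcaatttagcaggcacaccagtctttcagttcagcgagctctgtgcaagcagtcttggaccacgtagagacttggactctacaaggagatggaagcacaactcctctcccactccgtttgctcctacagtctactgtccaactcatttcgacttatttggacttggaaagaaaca
Gm17029, chr4:148966066-148966365, plus strand: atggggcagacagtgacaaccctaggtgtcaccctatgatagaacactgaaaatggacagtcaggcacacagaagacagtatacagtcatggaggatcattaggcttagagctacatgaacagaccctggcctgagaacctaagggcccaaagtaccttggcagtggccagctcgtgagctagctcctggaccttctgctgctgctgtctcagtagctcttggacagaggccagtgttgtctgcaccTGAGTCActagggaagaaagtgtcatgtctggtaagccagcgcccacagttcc
Arhgap40, chr2:158512546-158512845, plus strand: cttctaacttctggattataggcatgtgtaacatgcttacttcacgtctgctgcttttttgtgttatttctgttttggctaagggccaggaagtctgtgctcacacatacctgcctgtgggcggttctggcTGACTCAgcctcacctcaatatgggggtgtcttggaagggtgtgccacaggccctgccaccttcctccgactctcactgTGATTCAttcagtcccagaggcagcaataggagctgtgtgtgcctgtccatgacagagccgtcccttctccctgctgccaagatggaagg
Aqp5, chr15:99590778-99591077, plus strand: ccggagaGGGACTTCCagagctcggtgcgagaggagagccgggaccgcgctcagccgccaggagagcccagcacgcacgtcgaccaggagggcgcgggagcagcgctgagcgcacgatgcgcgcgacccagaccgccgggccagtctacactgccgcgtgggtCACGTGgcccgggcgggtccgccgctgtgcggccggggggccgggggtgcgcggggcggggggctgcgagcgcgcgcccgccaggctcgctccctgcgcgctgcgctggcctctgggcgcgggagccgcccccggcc

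The region at the Gm33122 start covered all 300 promoter bases and had a fold enrichment of 11.8 at day 7 and 6.53 at day 28. Fold enrichment is the authors' own value, the pileup at the summit over the background of that library, with the same small constant added to both. At Arhgap40 the region also covered all 300 bases, with a fold of 12.4 at day 7 and 5.11 at day 28. In both regions the day 7 value was the higher, although folds of different lists carry different floors and show no change. At Aqp5 the values were 5.37 and 5.39, and the region covered the start but only 62 of the promoter bases.

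The capitals mark AP-1 matches (TGANTCA), 1 in the Gm17029 promoter and 2 in that of Arhgap40. The match in the Gm33122 promoter is the E-box CAGCTG, and that in 9530036M11Rik is the GATA motif read on the opposite strand. The first match in Aqp5 is to the NF-kB motif GGGNNTTCC. The second one there is the E-box form with a central CG, CACGTG. Both Aqp5 matches lie upstream of the late gained region, while the matches in the other 4 promoters lie inside theirs. AP-1 is the factor family induced by growth and stress signals. Over the 53 promoter windows that members overlapped, AP-1 letters occurred in 9 (17.0%, exact interval 8.07% to 29.8%), against 7.85% of all 32585 promoters. Whole windows were searched, also where a member overlapped few bases, such as 3 at Gm52284 and 8 at Prkacb. Matches counted in these shares may therefore lie outside the member. Acot5 contributed 2 windows with near-identical starts, so the 9 windows belong to 8 of the 51 member regions (15.7%, exact interval 7.02% to 28.6%). Counted by region, the interval included the 7.85% of all promoters, and it also included the 9.54% of promoters that no region overlapped.

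The other motifs covered both strands too, and none of the 16 lay wholly inside another. The GATA letters AGATAA occurred in 15.1% of the member promoters and 11.2% of all. The E-box CAGCTG occurred in 22.6% and 16.4%, TEAD letters GGAATG in 17.0% and 14.6%, and RUNX letters TGTGGTT in 9.43% and 5.29%. NR5A letters AAGGTCA stood at 5.66% and 4.72%, HNF1 letters GTTAAT at 9.43% and 7.10%, NF-kB letters at 7.55% and 5.85%, CACGTG at 11.3% and 7.20% and KLF letters CCCACCC at 20.8% and 17.5%. Shares below that of all promoters were found for CCAAT (28.3% and 37.6%), TATA letters TATAAA (9.43% and 13.7%), ETS letters CCGGAAG (5.66% and 8.92%), RBPJ letters GTGGGAA (3.77% and 6.38%) and FOXA letters TGTTTAC (1.89% and 3.67%). The CRE letters TGACGTCA were in 0 of 53 windows, and 1.80% of all. For each of these 15 the interval of the member share included the share in all promoters, and a match is a run of letters rather than a bound site.

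The promoters of late gained regions had a median GC content of 52.0% and a median of 7 CpG dinucleotides, close to the 53.0% and 7 of all promoters. Promoters overlapped by a region of all 4 lists had medians of 61.0% and 20, while promoters that no region overlapped had 46.3% and 3. Promoters of regions listed at day 7 alone (52.5% and 6.5) or at days 1, 7 and 28 (52.0% and 6) lay close to the members. The 52 genes comprised 27 protein-coding genes and 25 long non-coding RNA genes. Among the former were Ins1 and Neurod1, an insulin gene and an endocrine transcription factor, with folds of 4.30 and 5.10 at day 7 and 3.41 and 4.54 at day 28.

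**Figure D1:**
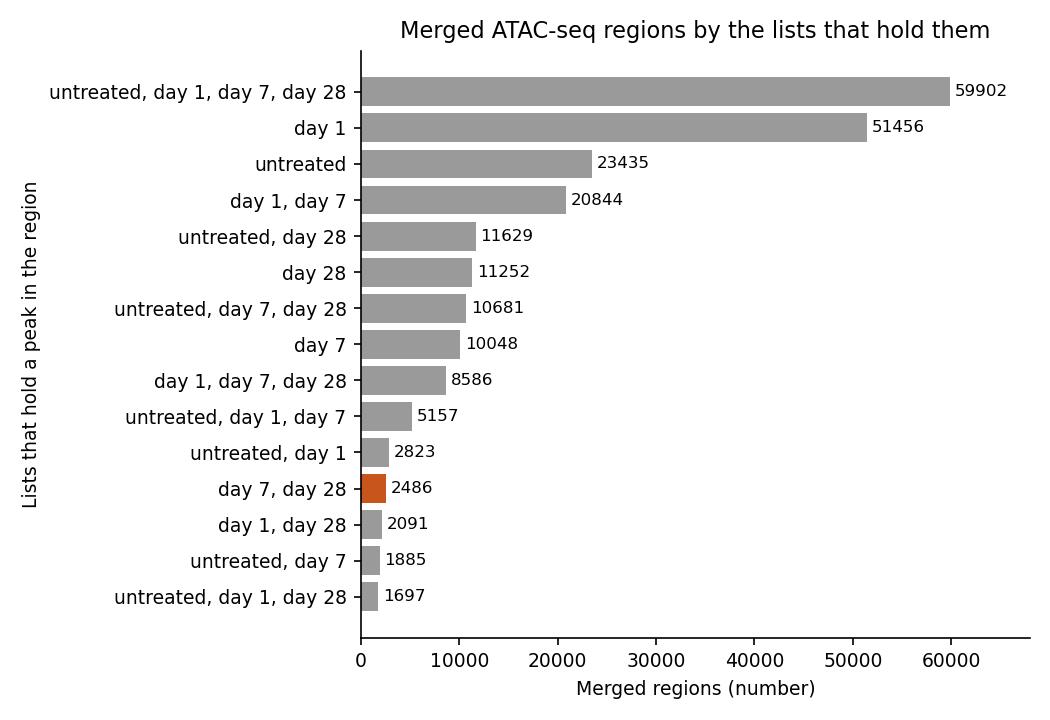
Number of merged regions (x axis) for each combination of lists that hold a peak in them (y axis). The bar of the late gained regions, in orange, stands at 2486, against 59902 regions held by all 4 lists and 51456 held by day 1 alone.

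Late gained regions were one of the less frequent of the 15 combinations, as the plot of regions by list shows. Regions of day 7 alone numbered 10048 and those of day 28 alone 11252. Regions listed at days 1, 7 and 28 but not in untreated epithelium numbered 8586, and those in untreated, day 7 and day 28 lists but not at day 1 numbered 10681. By count, regions first listed at day 1 and kept thus outnumbered regions first listed at day 7 and kept. The pools they came from differed too, with 51456 regions of day 1 alone against 10048 of day 7 alone. These counts are therefore not shares of regions kept.

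Most late gained regions were weak peaks in both lists. Their fold at day 7 ran from 3.22 to 15.0 with a median of 4.57, against 6.72 for the whole day 7 list. At day 28 it ran from 2.84 to 15.6 with a median of 4.54, against 6.24 for the whole list. Regions of day 7 alone had a lower median, 4.30, as had regions of day 28 alone, 3.97. Regions of days 1, 7 and 28 had medians of 6.72 at day 7 and 4.54 at day 28. In pileup, the count of reads or fragments stacked at the summit, the medians of the members were 16 and 15 and the highest values 55 and 54. By −log10 q, 2067 members (83.1%) lay below the middle of both lists, and 57 (2.29%) lay above it in both.

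The libraries differed in the height a peak needed. The lowest pileup in a list was 14 before caerulein, then 14, 10 and 9 on days 1, 7 and 28, on backgrounds of 5.07, 5.35, 2.72 and 2.52. Regions held by all 4 lists had a median fold above 1 of 7.40, 16.6, 15.1 and 11.5, so the untreated library showed the lowest enrichment. Scaled by these medians, a region needed a fold of 4.00 at day 7 and 3.28 at day 28 to reach the lowest fold listed in untreated epithelium, and 2082 and 2446 members did. Against day 1 the folds needed were 2.24 and 1.94, which all 2486 members reached. Together 2049 of the 2486 members passed every scaled floor. For the remaining members, absence from the untreated list cannot be told apart from its lower sensitivity. Each floor is the lowest fold listed, and an untreated fold of 2.97 stood only at percentile 2.33 of the untreated list. Passing the floors therefore does not assure a listing, and the part of sensitivity in the other absences was not tested.

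**Figure D2:**
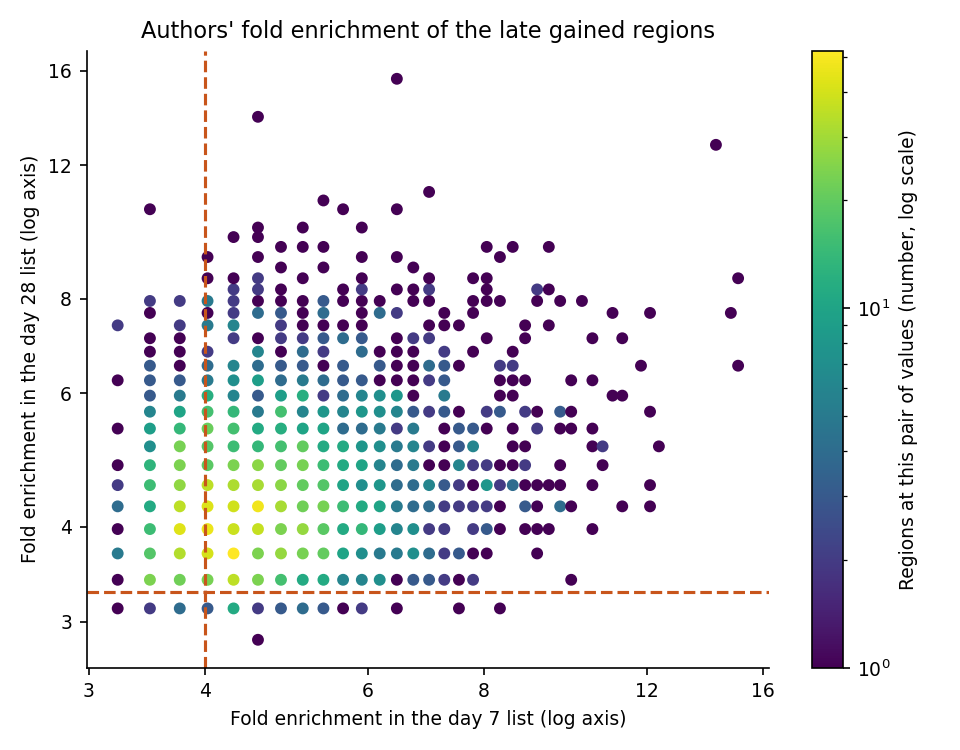
Authors' fold enrichment of the 2486 late gained regions in the day 7 list (x axis, log) and the day 28 list (y axis, log), coloured by the number of regions at each pair of values. The dashed lines mark the folds of 4.00 and 3.28 that correspond to the untreated list's floor. Most regions crowd just above the lines, and few exceed a fold of 8 on both axes.

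Around the selection limits, 154 members had a day 7 pileup of 11 or 12 (fold 3.22 to 3.49) and 40 had a day 28 pileup of 9 or 10 (fold 2.84 to 3.12). Just outside, 26 of the 10681 regions of the untreated, day 7 and day 28 combination were held by an untreated peak with a pileup of at most 16 (fold 2.64 to 2.80). Likewise 10 of the 8586 regions of the days 1, 7 and 28 combination rested on a day 1 peak that low, at a fold of 2.68. Peaks that low were rare in the whole lists too, where a pileup of 17 stood at percentile 2.33 (untreated) and 1.41 (day 1). These counts therefore do not show how many regions lay near the limit.

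By the rule a member holds overlapping peaks of the 2 lists, with median widths of 206 bp at day 7 and 207 bp at day 28. Nearby summits are therefore partly set by the selection. A single peak in each list made up 2380 of the members. Their summits lay a median of 48 bp apart, against 36 bp in the other regions that both lists held, and 1937 members (77.9%) had summits within 100 bp. Ranks in the 2 lists were only loosely related across members (Spearman correlation 0.197 over 2486 regions, each pair from the same 2 libraries). Members had a median width of 287 bp and covered 771.6 kb in all.

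Late gained regions lay mostly away from gene starts. Within 1 kb of an annotated start lay 125 members (5.03%, exact interval 4.20% to 5.96%), against 8.91% of all merged regions and 20.6% of those held by all 4 lists. Regions of day 7 alone (5.13%), of day 28 alone (5.07%) and of days 1, 7 and 28 (4.57%) had shares like that of the members. A protein-coding gene span held 1410 members (56.7%, against 57.3% of all merged regions), and 2133 (85.8%, against 86.2%) had a protein-coding gene within 50 kb. Read from the other side, late gained regions made up 0.627% of merged regions within 1 kb of a start, 1.13% from 1 to 10 kb, 1.18% from 10 to 50 kb and 1.15% beyond. Among merged regions without an untreated peak, the corresponding shares were 2.73%, 2.50%, 2.42% and 2.02%. The scarcity at starts was therefore not seen once regions with an untreated peak were left out.

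Late gained regions lay farther from their neighbours than merged regions did in general, with a median gap of 787 bp to the next region against 471 bp, and 53.1% against 61.8% had one within 1 kb. The nearest untreated peak lay a median of 2705.5 bp away, and 824 members (33.1%) had one within 1 kb. The nearest day 1 peak lay a median of 2854 bp away, and 776 members (31.2%) had one within 1 kb. For regions of day 7 alone these shares were 31.9% and 41.8%, and for regions of day 28 alone 53.8% and 37.4%. No peak of either list lay within 10 kb of 342 members (13.8%). The nearest merged region was itself a late gained region for 126 members (5.07%), against 1.05% over all merged regions. Without regions linked to Chka, described below, this share was 4.74%, and the share over all regions 1.04%. Regions of day 7 alone were the nearest neighbour of 9.65% of members and 4.42% of all regions, and those of day 28 alone of 9.69% and 5.11%. Regions of day 1 alone were the nearest neighbour of fewer members (11.8%) than of all regions (23.1%).

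Linked to the nearest protein-coding gene within 50 kb, the members fell on 1705 of the 17459 genes that had any merged region (9.77%). A single member was linked to 1398 genes, 236 genes had 2, 45 had 3 and 26 had 4 or more. The link is by distance and does not show that a region acts on that gene.

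Chka stood first, with 16 of its 50 regions late gained (32.0%, exact interval 19.5% to 46.7%), beside 1.11% of all regions linked to a gene. It encodes choline kinase alpha, which phosphorylates choline in the first step of phosphatidylcholine synthesis. All 16 lay inside the gene span, chr19:3851585-3894369, between 11057 and 38582 bp downstream of the annotated start. Their folds ran from 3.76 to 6.72 at day 7 and from 3.12 to 10.5 at day 28. The highest value at day 28 was that of chr19:3873853-3874345, which had a fold of 6.45 at day 7. The region at the Chka start was in all 4 lists, with folds of 94.9 in untreated epithelium and 105, 132 and 144 at days 1, 7 and 28. In all, the lists held 17, 4, 31 and 43 regions linked to Chka. These counts include regions outside the gene span. At day 1 the listed regions were the one at the start and others upstream of the gene. Apart from the region at the start, no region of the gene span was in the day 1 list. With a −log10 q of at least 5 asked of the day 7 and day 28 peaks, 8 of the 16 remained. With a merge gap of 100 bp, 13 of 36 regions linked to Chka were late gained. Chka was named for its count of members, so its share and interval are a description.

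**Figure D3:**
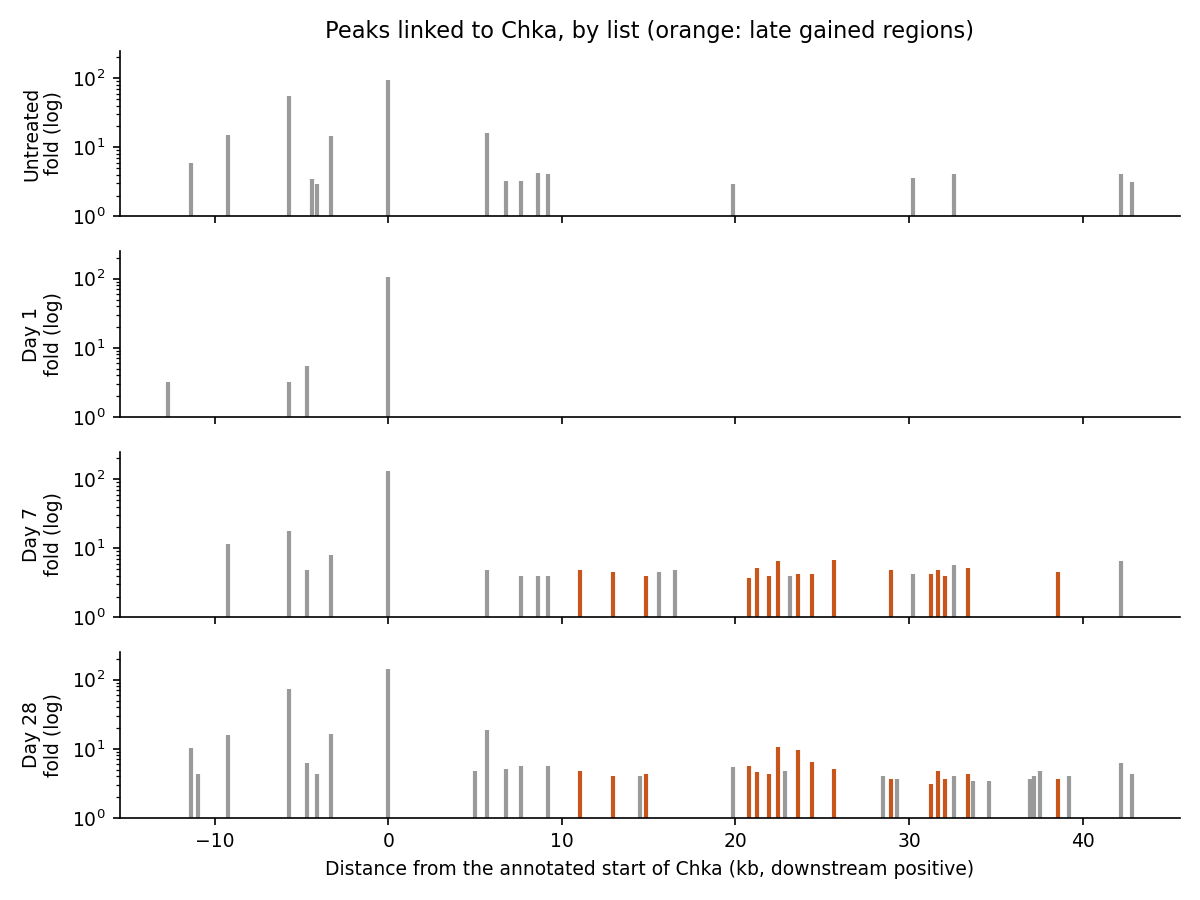
Authors' fold enrichment (y axes, log) of each merged region linked to Chka in the 4 lists, by its distance from the annotated start (x axis, kb). Orange lines are the 16 late gained regions, which lie 11057 to 38582 bp downstream and appear only in the day 7 and day 28 panels.

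Glul, Sgms2 and Gch1 were further metabolic genes with several members. Glul, the glutamine synthetase gene, had 5 late gained regions of 27, lying 3745 to 9574 bp downstream of the start in a span of chr1:153899929-153909723. Their folds were 3.22 to 6.45 at day 7 and 4.26 to 9.08 at day 28, and the region at the start had folds of 94.4, 115, 128 and 129 in untreated epithelium and at days 1, 7 and 28. Sgms2, a sphingomyelin synthase gene, had 6 of 63, 5 of them inside the gene and 1 lying 2659 bp outside it, and 1 was left where no untreated or day 1 peak was allowed within 1 kb. Gch1, whose product starts tetrahydrobiopterin synthesis, had 4 of 17 (23.5%), 1 of them inside.

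Several members were also linked to Nfil3, Hsp90aa1 and Ctsl. Nfil3, which encodes a basic leucine zipper repressor with circadian roles, had 6 of 42 regions, 3 inside the gene and 3 within 2738 bp beyond its end. Hsp90aa1, the inducible cytosolic Hsp90 chaperone, had 3 of 11 (27.3%), lying 322, 844 and 1363 bp outside the gene span. Ctsl, the lysosomal protease cathepsin L, had 4 of 20, and its region chr13:64365222-64365733 had a fold of 6.98 at day 7 and 11.1 at day 28. In all 3 genes the members lay within 2738 bp of the gene span. Hsp90aa1 had 0 with a −log10 q of at least 5 at days 7 and 28 and 1 with a merge gap of 100 bp, and Ctsl had 0 where no untreated or day 1 peak was allowed within 1 kb.

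Longer genes with many regions gave lower shares. Aff1, part of the super elongation complex, had 6 of 119 (5.04%), Baiap2, an actin and membrane adaptor, 6 of 71 (8.45%), and Susd6 5 of 43 (11.6%). Lpp, a focal adhesion protein, had 5 of 122 (4.10%) and Lrmda 5 of 115 (4.35%). Fcgr1, an immunoglobulin receptor of myeloid cells, had 3 of 10 regions (30.0%), all 33267 to 47026 bp upstream of the gene. Fam155a, an ion channel subunit gene, had 3 of 14 (21.4%), all inside the gene. With 10 to 14 regions these shares have wide intervals, 6.67% to 65.2% for Fcgr1, which had 0 with links within 10 kb. Where no untreated or day 1 peak was allowed within 1 kb, Aff1 and Susd6 had 0, Baiap2 1 and Glul 2. With a −log10 q of at least 5 at days 7 and 28, Glul, Nfil3, Aff1, Baiap2 and Susd6 had 3 each, Lpp and Lrmda 2 each and Fam155a 1, and Gch1 had 1 with links within 10 kb.

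**Figure D4:**
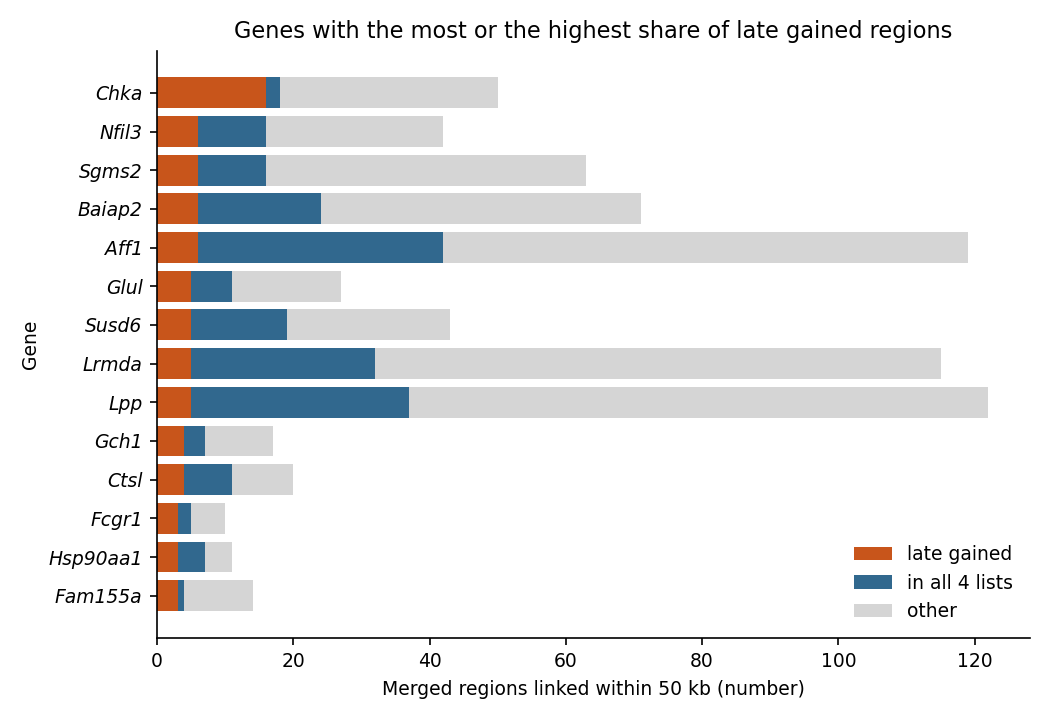
Merged regions linked within 50 kb (x axis, number) for the genes with the most late gained regions or the highest share of them (y axis). Orange marks late gained regions, blue regions of all 4 lists and grey the others; Chka has the longest orange bar, 16 of 50.

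The strongest members by rank in both lists lay at other genes. The region with the highest lower rank was chr9:74101551-74101968, 8632 bp from Wdr72, with a fold of 14.2 at day 7 and 12.8 at day 28 (pileups of 52 and 44). It stood at percentiles 75.3 and 73.5 of the 2 lists, and no member passed percentile 76.5 of the day 7 list or 77.8 of the day 28 list. Inside Adcy2, an adenylyl cyclase gene, chr13:68807527-68808132 had folds of 14.8 and 7.66.

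Jmjd1c, which encodes a JmjC-domain protein of the histone demethylase family, held 2 of the 10 strongest regions, 3480 and 6915 bp downstream of its start. Their folds were 8.33 and 9.67 at day 7 and 7.95 each at day 28. Acsm3, a mitochondrial acyl-CoA synthetase gene, held a region with folds of 8.33 and 9.08. The others lay in Ermard (9.40 and 9.37), Nedd4l, a ubiquitin ligase gene (9.40 and 8.23), Adamtsl1 (8.60 and 9.37), Kcnip4 (9.13 and 7.95) and Btnl1 (11.0 and 7.66). None of these 9 genes was among the genes with the most members.

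Gene lists chosen for this tissue held members at close to the background share. The 19 lists, with 324 genes, had 87 late gained regions among 6385 linked regions (1.36%, exact interval 1.09% to 1.68%), beside 1.11% of all linked regions, and 68 genes had at least 1. In each single list the exact interval of the share included 1.11%.

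**Figure D5:**
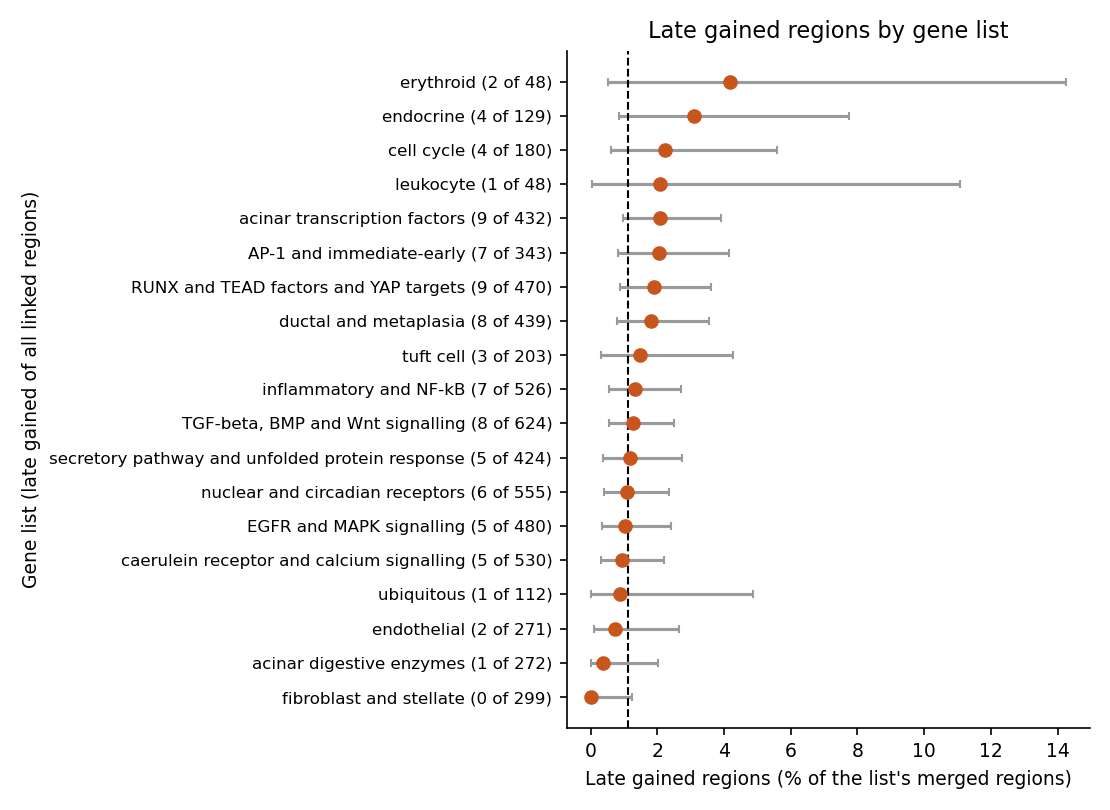
Share of late gained regions among the merged regions linked to the genes of each list (x axis, %), with exact 95% intervals (grey) and the 1.11% of all linked regions (dashed). Numbers beside each list are late gained of all linked regions; every interval spans the dashed line.

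The acinar digestive enzyme genes had 1 late gained region among 272 (0.368%), 16881 bp beyond Prss2, a trypsinogen gene, with a fold of 4.03 at day 7 and 8.52 at day 28. The same list had 63 regions of day 28 alone (23.2%, against 5.23% of all linked regions) and 94 of untreated and day 28 alone (34.6%, against 5.38%), and 83 of its 272 regions were in the day 7 list. The acinar transcription factor genes had 9 of 432 (2.08%, exact interval 0.957% to 3.92%), which overlaps the 0.00931% to 2.03% of the enzyme list, and the difference was not tested. With no untreated or day 1 peak allowed within 1 kb, the 2 lists had 2 and 0. Gata6 had 4 of 21, with folds of 4.30 to 4.57 at day 7 and 3.69 to 5.96 at day 28. Nr5a2, a nuclear receptor needed for the acinar programme, had 2 of 58, both inside the gene, with folds of 5.10 and 3.76 at day 7 and 6.53 and 7.38 at day 28. Xbp1, a regulator of secretory capacity, had 2 of 22 and Gata4 1 of 60.

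Secretory pathway and unfolded protein response genes had 5 of 424 (1.18%), of which Sec24d, a coat protein of transport vesicles, had 2 and Hspa5, Atf6 and Herpud1 1 each. The region inside Hspa5, the chaperone BiP, had folds of 4.57 and 4.54. The caerulein receptor and calcium signalling genes had 5 of 530 (0.943%). Of these Itpr3, a calcium release channel of acinar cells, had 2 and Itpr2, Atp2a2 and Chrm3 1 each. The region in Chrm3, the muscarinic receptor of acinar secretion, had folds of 5.64 and 7.10. Cckar, the receptor that caerulein acts on, had none.

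Ductal and metaplasia genes had 8 of 439 (1.82%). With a −log10 q of at least 5 at days 7 and 28 they had 3. Where no untreated or day 1 peak was allowed within 1 kb they had 1. Clu, a secreted chaperone induced on injury, had 3 of 17, with folds of 4.03 to 5.91 at day 7 and 3.41 to 4.83 at day 28. Onecut1 and Cdh1, a ductal transcription factor and E-cadherin, had 2 each. Krt7, a duct keratin, had 1, at chr15:101428301-101428885, with folds of 6.98 and 7.38, 689 bp from the gene.

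Among AP-1 and immediate-early genes 7 of 343 regions were late gained (2.04%). Klf6 had 2, and Fos, Fosl2, Jdp2, Mafk and Egr1 had 1 each. The region 7060 bp upstream of Fosl2, a Fos family member, had folds of 5.91 and 7.10, and that near Egr1 had 8.60 and 6.24. The RUNX and TEAD factor and YAP target genes had 9 of 470 (1.91%), with 3 at Tead1 and 1 each at Tead3, Runx1, Runx2, Wwtr1, Ccn1 and Ccn2. The region near Ccn2, a YAP target, had folds of 7.52 and 4.26.

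Signalling genes had shares near the background. EGFR and MAPK genes had 5 of 480 (1.04%), 3 of them inside Dusp5, an ERK phosphatase, with folds of 3.76 to 5.64 at day 7 and 3.41 to 6.24 at day 28. Hbegf, a growth factor gene, had 1. Inflammatory and NF-kB genes had 7 of 526 (1.33%), 1 each at Il33, Stat3, Socs3, Nfkbia, Tnfaip3, Il1r1 and Lcn2. The region near Il33, an epithelial alarm cytokine, had folds of 9.67 and 4.83, and that inside Stat3, the effector of interleukin 6 signalling, 5.37 and 7.66. TGF-beta, BMP and Wnt genes had 8 of 624 (1.28%), of which Tcf7l2 had 2; the region near Axin2, a Wnt target, had folds of 11.0 and 5.96. Nuclear and circadian receptor genes had 6 of 555 (1.08%), with 2 at Rxra and 1 each at Hnf4a, Esrrg, Rora and Nr4a1. These genes had 0 with a −log10 q of at least 5 at days 7 and 28. They had 1 where no untreated or day 1 peak was allowed within 1 kb. Cell cycle genes had 4 of 180 (2.22%), with 2 at Ccnd1 and 1 each at Cdk6 and Rb1. Under the same 2 settings the cell cycle genes had 1 and 4.

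Marker lists of other cell types had few members by count. Their shares lay on both sides of the background, and the interval of each list's share included the background. Fibroblast and stellate genes had 0 of 299, where a count of 0 allows a share of up to 1.00% (3 counts, a one-sided limit) and the two-sided exact interval reaches 1.23%. The background of 1.11% lies between these bounds, so the list is not separated from it. These genes had 2 of 280 with a −log10 q of at least 5 in every peak list. With windows of 150 bp either side of each summit they had 4 of 369. Of the 299 regions, 26 (8.70%) were listed at days 1, 7 and 28 only, against 3.65% of all linked regions. Leukocyte genes had 1 of 48 (2.08%), near Cd3e, and endothelial genes 2 of 271 (0.738%), at Erg and Vwf. Endocrine genes had 4 of 129 (3.10%), 1 each at Ins1, Neurod1, Mafa and Nkx2-2. Tuft cell genes had 3 of 203 (1.48%), at Alox5ap, Avil and Chat. Erythroid genes had 2 of 48 (4.17%), at Ank1 and Slc4a1, and ubiquitous genes 1 of 112 (0.893%), at Ywhaz. The part of these cell types in the late gained regions was not tested.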

How the data were processed

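ATAC-seq peak lists of 4 of the 7 samples were analysed, 1 list each for untreated epithelium and for days 1, 7 and 28; titles gave the groups. Per the submitters' processing notes the build was GRCm38 (mm10), and the tools included MACS2 2.1.0.20150731 and Bowtie2 2.2.6, besides cutadapt, SAMtools and deepTools. The sources used here do not give options, read filters or whether reads were shifted for Tn5. The lists were called per sample, 1 file each. The authors' fold enrichment is a ratio of summit pileup to background, with 1 added to both. The authors' −log10 p and −log10 q and the deposited score measure the same enrichment. The deposited summit offset (the remaining column used) gave each peak's point.

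Depth was read from the authors' fold and −log10 p: with 1 background per list, 100% of pileups were whole within 0.05. Overlapping peaks were merged (checked with bedtools 2.31.1 and tested on simulated data), scored present or absent, and linked by summit to the nearest protein-coding RefSeq gene span of GRCm38.p6 within 50 kb. Promoters were RefSeq windows of 300 bases; these, not summit windows, were searched for motifs because no genome sequence was used. Exons, introns and UTRs were not separated. Shares carry exact (Clopper-Pearson) 95% intervals; p-values were not computed, each group being 1 library. The analysis used Python 3.11.15, pandas 2.3.3, numpy 2.4.6 and scipy 1.17.1.

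The members and the 19 gene lists were chosen with earlier results of these data known. Named items were the 10 members with the highest lower percentile of −log10 q of the 2 lists that had a gene within 50 kb, the 10 genes with most members and the 5 with the highest share among at least 10 regions, up to 4 genes per list (all 7 inflammatory genes, and the further genes of short counts, were named after their values were seen), and up to 10 members at annotated promoters by the same measure. Ties went to the higher such percentile, then to alphabetical order. Sequences were printed for 5 of those promoters, none from chromosome 18. Alternatives covered merging, peak extent, thresholds, absence and link distance.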

Additional observations from a re-analysis of the deposited data

How the results depend on the processing

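The number of late gained regions was 2486 as reported, 2477 when touching peaks were merged, 2178 with a merge gap of 100 bp, 2581 with a common fold floor, 2049 with scaled floors and 1709 with a −log10 q of at least 5 in every list. It moved to 4645 with windows of 150 bp either side of each summit, 1224 with a −log10 q of at least 5 at days 7 and 28, and 1435 with no untreated or day 1 peak within 1 kb. For these 3 settings the share within 1 kb of a protein-coding gene end, 6.03% as reported, was 10.4%, 4.98% and 3.90%, and it was 4.91% with the merge gap. The count over the gene lists, 87, became 161, 46 and 38. The share with a gene within 50 kb, 85.8%, was 88.2% with summit windows, 83.1% with the 1 kb rule and 70.8% within 10 kb. The cause was not tested. The share of members whose nearest region was another member, 5.07%, was 4.74% without Chka, an alternative chosen after seeing the data. No paired analysis was possible because each group had 1 library. The lowest fold of the untreated list was 2.47, against 2.95 at day 7 and 2.84 at day 28, while its median fold above 1 in shared regions was 7.40, the lowest of the 4 libraries.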

Other observations

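Members also lay at microRNA genes and far from any protein-coding gene. The hairpins of Mir1983 and Mir1943 overlapped a late gained region, with folds of 7.25 and 4.83 at day 7 and 6.81 and 4.83 at day 28. Those of Mir3064, Mir2137 and Mir7079 lay 175, 418 and 450 bp from one. The strongest member with no protein-coding gene within 50 kb lay 66791 bp from Efemp1, at chr11:28993395-28993729, with a fold of 15.0 at day 7 and 8.52 at day 28. The widest member, 1088 bp, lay at chr15:59953769-59954856 and had folds of 9.13 and 8.23. By chromosome the share of late gained regions ran from 0.938% on chromosome 6 to 1.44% on X.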
